A study of Mus musculus with 10 samples.

Results

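The 10 genes described here encode receptors, signalling adaptors and lysosomal proteins that are known from macrophages, namely Csf1r, Adgre1, Mrc1, Cd14, Fcgr1, Fcgr3, Fcer1g, Tyrobp, Lyz2 and Laptm5. They were chosen by name, with earlier results of these data known, and all 10 were found among the 24608 gene symbols of the count table. The RNA-seq data comprise 10 libraries, 5 of control and 5 of Trpm7 cKO mouse muscle satellite cells (MuSCs, the stem cells of skeletal muscle), each from 3000 sorted cells, to compare MuSCs with and without the Mg2+-permeable channel TRPM7 at 3 days after cardiotoxin (CTX) injury. Mice of both genotypes carried Pax7 CreERT2/+ and Rosa26 YFP, with Trpm7+/+ in control and Trpm7 flox/flox in Trpm7 cKO. All were adult mice of both sexes on a C57BL6 background, and tamoxifen (TMX) switched on the Cre recombinase, which the Pax7 locus drives, so that Trpm7 deletion and YFP labelling are directed to Pax7-expressing cells. The libraries were made from YFP-positive cells. For the sequenced cells the labels describe sorting on YFP, and the antibodies against CD45, CD31 and Sca-1 in the methods are given for MuSCs from uninjured muscle. The names of Trpm7 cKO replicates 4 and 5 share a number whose meaning is not stated, so these libraries may not be independent. Nothing in the labels says which libraries came from separate animals, and the p-values measure the spread between these libraries.

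Macrophages are phagocytes of the mononuclear lineage that enter muscle after injury, clear debris and exchange signals with MuSCs. Their survival and differentiation depend on CSF1R, the receptor for the cytokines CSF1 and IL-34. Fc gamma receptors bind the constant part of immunoglobulin G and, like several other myeloid receptors, pass the signal through small membrane adaptors (FcR gamma, encoded by Fcer1g, and DAP12, encoded by Tyrobp) whose tyrosine motifs, called ITAMs, recruit the kinase SYK. MuSCs are not of this lineage.

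The libraries were read at the 3′ end of transcripts, with a unique molecular identifier (UMI) that lets each molecule be counted once. The smallest control library held 914361 counts and the largest 1097709, against 205986 and 581121 for Trpm7 cKO. The totals did not overlap, so effects of depth and of genotype on them cannot be told apart. Counts were therefore also expressed as normalized CPM, that is, scaled to a common library size with edgeR's TMM factors. Trpm7, the targeted gene, had 66 to 84 counts in control and 10 to 55 counts in Trpm7 cKO libraries, or 76.9 ± 9.97 and 71.4 ± 22.0 normalized CPM (SD, n = 5), and the 3′ tag does not test whether the upstream exon was removed. The genotypes were taken from the labels.

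All 10 genes had a higher normalized CPM in every Trpm7 cKO library than in any control library. For comparison, 16.6% of the 7753 genes tested had that order. Together, the 10 genes took 0.0152% to 0.0283% of a control library and 0.0870% to 0.336% of a Trpm7 cKO library, or 230.0 ± 49.3 and 2111 ± 896 summed normalized CPM (SD, n = 5). Of the 10 genes, 9 passed edgeR's filter on low counts. All 9 rose in the Trpm7 cKO libraries beyond a log2 fold change of 1.5 with an adjusted p-value under 0.05. By the same thresholds, 8.49% of all tested genes rose and 3.53% fell. The median log2 fold change was 3.20 over these 9 genes and -0.01 over all tested genes. Of the 9, 4 (Csf1r, Adgre1, Mrc1 and Fcgr3) were below the filter's minimum of 13.4 CPM in every control library and passed through the Trpm7 cKO libraries alone, so their passing the filter is tied to their being high there. In bulk RNA, more cells of a type and more RNA per cell cannot be told apart.

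**Figure D1:**
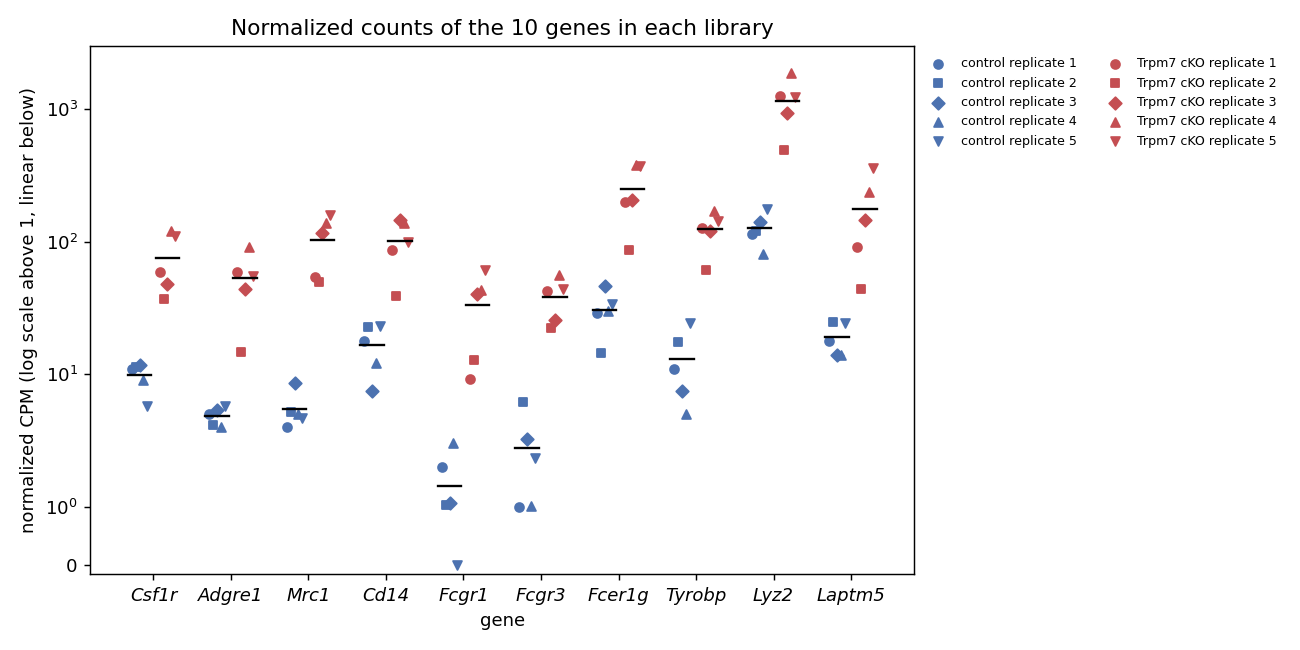
Normalized CPM (vertical axis, log scale above 1 and linear below) of the 10 genes in the 5 control libraries (blue) and the 5 Trpm7 cKO libraries (red), with a marker shape for each replicate number and black lines at the group means. For each gene the red points lie above the blue points, and the square of Trpm7 cKO replicate 2 is the lowest red point for 9 of the 10 genes.

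The raw counts showed the same order for most of the genes. As deposited, with no normalization, 8 of the 10 genes had more counts in every Trpm7 cKO library than in any control library, an order that 2.10% of all tested genes showed. Cd14 and Laptm5 were the 2 genes whose raw counts overlapped. Taken per 3000 sorted cells without any correction for library size, a comparison chosen after seeing the data, 8 of the 9 tested genes still passed both thresholds and Cd14 did not. The log2 fold changes of the 9 genes then ran from 1.40, that of Cd14, to 2.91. Of all 7753 tested genes, 203 rose (2.62%) and 2461 fell in that comparison.

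Csf1r, the receptor that macrophages need for survival and differentiation, was counted 11, 11, 11, 9 and 5 times in the control libraries and 32, 20, 13, 73 and 20 times in the Trpm7 cKO libraries (replicates 1 to 5 in order, here and for the genes that follow). Even the lowest Trpm7 cKO library thus had more molecules than any control library, from a smaller total. In normalized CPM the levels were 9.78 ± 2.47 in control and 74.95 ± 38.2 in Trpm7 cKO (SD, n = 5). This was a log2 fold change of 2.88 with a standard error of 0.33 (adjusted p = 1.23e-06, quasi-likelihood test of edgeR). The 3′ end of Csf1r overlaps Hmgxb3 on the other strand, and the strand setting of the counting is not given in the sources used here. Hmgxb3 itself had 6 to 11 counts in control and 1 to 7 counts in Trpm7 cKO libraries.

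Adgre1, which encodes the macrophage surface protein F4/80, had 5, 4, 5, 4 and 5 counts in control and 32, 8, 12, 55 and 10 counts in Trpm7 cKO libraries. The groups did not overlap. The log2 fold change was 3.43 (standard error 0.40, adjusted p = 1.49e-06). In normalized CPM, Adgre1 went from 4.85 ± 0.770 to 52.8 ± 27.6 (SD, n = 5), with Trpm7 cKO replicate 2 the lowest of its group, at 14.7, and replicate 4 the highest, at 91.1.

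Mrc1 encodes the mannose receptor CD206, an endocytic lectin found on tissue macrophages. It had 4, 5, 8, 5 and 4 counts in control and 29, 27, 32, 83 and 29 counts in Trpm7 cKO libraries, so that 4 of the 5 Trpm7 cKO libraries had nearly the same number of molecules despite totals that differed widely. Its log2 fold change was 4.12 ± 0.37 (standard error, with an adjusted p of 1.13e-07), the highest of the 9 tested genes. The normalized levels were 5.47 ± 1.80 CPM in control and 103.6 ± 49.8 CPM in Trpm7 cKO (SD, n = 5).

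Cd14, the co-receptor that hands bacterial lipopolysaccharide to the Toll-like receptor TLR4, had 18, 22, 7, 12 and 20 counts in control and 47, 21, 40, 83 and 18 counts in Trpm7 cKO libraries. Trpm7 cKO replicates 2 and 5 lay within the control range of counts, and the groups separated only after correction for library size, at 16.7 ± 6.81 against 101.7 ± 43.2 normalized CPM (SD, n = 5). Its log2 fold change was 2.57 ± 0.34 (standard error, with an adjusted p of 1.14e-05), the lowest of the 9 tested genes.

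Among the Fc receptors, Fcgr1 encodes the high-affinity receptor for immunoglobulin G. It had 2, 1, 1, 3 and 0 counts in control and 5, 7, 11, 26 and 11 counts in Trpm7 cKO libraries. The groups did not overlap, but the gene did not pass the low-count filter and was not tested with the others. Against a floor of 3 counts in each control library, which corresponds to 3.16 CPM on average, its mean of 33.2 ± 21.7 normalized CPM in Trpm7 cKO (SD, n = 5) was at least 10.5-fold higher. Without a filter, it passed both thresholds as well (adjusted p = 2.67e-14, edgeR). This p-value comes from a separate fit over 21914 genes and cannot be ranked against those of the 9 tested genes.

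Fcgr3, a low-affinity activating receptor for immunoglobulin G complexes, had 1, 6, 3, 1 and 2 counts in control and 23, 12, 7, 34 and 8 counts in Trpm7 cKO libraries. The lowest Trpm7 cKO library exceeded the highest control library by 1 count, and by 22.1 against 6.20 in normalized CPM. The log2 fold change was 3.74 (standard error 0.41, adjusted p = 5.94e-07).

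Fcer1g encodes the FcR gamma chain, the ITAM adaptor that these receptors share with the high-affinity immunoglobulin E receptor. It was the second most abundant of the 10 genes, with 29, 14, 43, 30 and 29 counts in control and 107, 47, 56, 230 and 68 counts in Trpm7 cKO libraries. It rose by 2.99 on the log2 scale (standard error 0.41, adjusted p = 0.000116), from 30.6 ± 11.3 to 249.0 ± 127 normalized CPM (SD, n = 5). Trpm7 cKO replicates 4 and 5 were the highest, at 381 and 375 CPM, and replicate 2 the lowest, at 86.5 CPM.

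Tyrobp encodes DAP12, the adaptor of TREM2 and related receptors, and had 11, 17, 7, 5 and 21 counts in control and 68, 33, 33, 103 and 26 counts in Trpm7 cKO libraries. In normalized CPM, Tyrobp went from 13.1 ± 7.85 to 124.2 ± 40.5 (SD, n = 5), and its log2 fold change was 3.24 ± 0.34 (standard error, with an adjusted p of 9.70e-07). Control replicates 2 and 5 were the highest of their group and replicate 4 the lowest, and the highest control library, at 24.3 CPM, lay below the lowest Trpm7 cKO library, at 60.7 CPM.

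Lyz2, which encodes the antibacterial enzyme lysozyme of phagocytes, was the most abundant of the 10 genes, with 114, 117, 131, 81 and 152 counts in control and 683, 268, 258, 1124 and 223 counts in Trpm7 cKO libraries. Its log2 fold change was 3.20 (standard error 0.32, adjusted p = 4.45e-06), from 126.4 ± 34.96 to 1158 ± 500.1 normalized CPM (SD, n = 5). Of the last 500 bases of the Lyz2 transcript, 64.0% were covered by stretches of 31 bases that also occur in Lyz1, so that reads of the 2 genes could be exchanged or lost. Lyz1 was counted at 0 to 1 in control and at 4 to 13 in Trpm7 cKO libraries. The other 9 genes shared no such stretch with another gene.

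Laptm5, a lysosomal membrane protein of blood cells, had 18, 24, 13, 14 and 21 counts in control and 49, 24, 40, 144 and 65 counts in Trpm7 cKO libraries. Trpm7 cKO replicate 2, with 24 counts, equalled the highest control library and exceeded it after normalization, at 44.2 against 24.8 CPM. The log2 fold change was 3.09, with the largest standard error of the 9 tested genes (0.53, adjusted p = 0.000618). Trpm7 cKO libraries ranged up to 359 CPM in replicate 5, the library with the fewest counts in all.

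**Figure D2:**
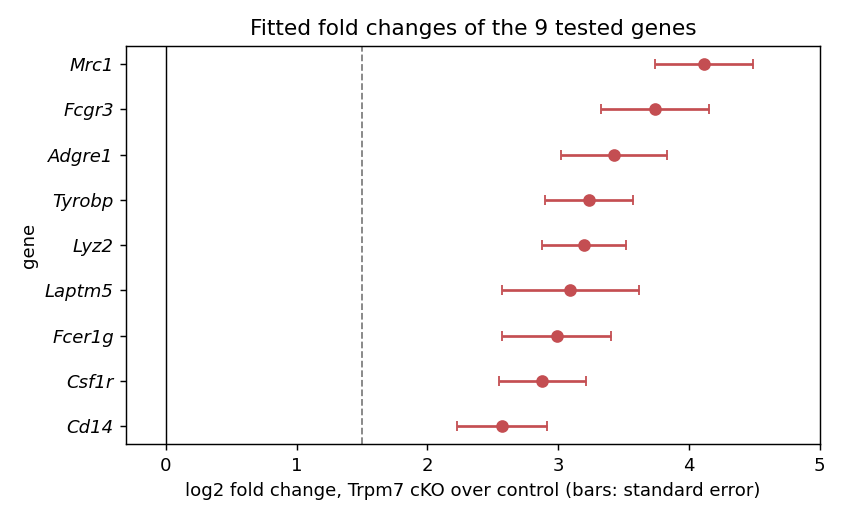
Log2 fold change (horizontal axis, Trpm7 cKO over control, 5 libraries each) of the 9 tested genes, with bars for the standard error. The points run from 2.57 for Cd14 to 4.12 for Mrc1, and each bar ends above the dashed line at the call threshold of 1.5.

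Neighbouring genes in this order of fold changes differed by less than the larger of their standard errors. Tested against a log2 fold change of 1.5 rather than against no change (glmTreat in edgeR), all 9 genes passed, with a largest adjusted p of 0.0369. With DESeq2 or limma-voom in place of edgeR, all 9 passed as well. When the counts of Trpm7 cKO replicates 4 and 5 were summed as 1 sample, the 9 log2 fold changes lay between 2.54 and 4.005 and all passed.

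In UMI data each molecule is counted once whatever the length of its transcript, so levels of different genes can be ordered, up to differences in how well their 3′ ends are captured. By mean normalized CPM in Trpm7 cKO libraries, the order was Lyz2, Fcer1g, Laptm5, Tyrobp, Mrc1, Cd14, Csf1r, Adgre1, Fcgr3 and Fcgr1. Lyz2 exceeded Fcer1g, and Fcer1g exceeded Laptm5, in 5 of 5 libraries. For each later pair of neighbours the order did not hold in at least 1 library. In control libraries Lyz2, Fcer1g and Laptm5 led as well, but Cd14 came before Tyrobp, and Csf1r before Mrc1.

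The make-up of the 10 genes' counts differed less between genotypes than their sum. Lyz2 gave 54.4% ± 3.68 of these counts in control and 55.3% ± 6.46 in Trpm7 cKO libraries (SD, n = 5). Fcer1g gave 13.6% ± 5.18 and 11.4% ± 1.74, and Tyrobp 5.41% ± 2.43 and 6.14% ± 0.763. Mrc1 had a larger mean share in Trpm7 cKO, at 2.45% ± 0.811 and 5.03% ± 1.54, and Cd14 a smaller one, at 7.30% ± 2.58 and 4.97% ± 1.70. Mean shares were also larger for Fcgr1 (0.73% and 1.56%) and Fcgr3 (1.175% and 1.903%), and smaller for Csf1r (4.47% and 3.55%). For each of the 10 genes, Mrc1 and Cd14 included, the ranges of the shares in the 2 genotypes overlapped.

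**Figure D3:**
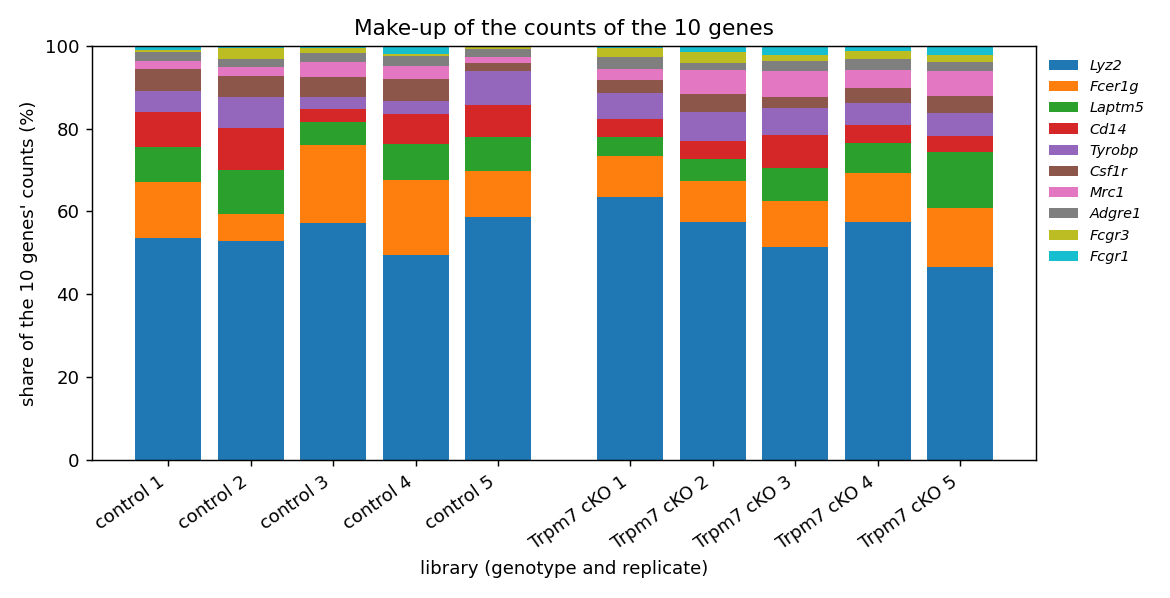
Share of each gene in the summed counts of the 10 genes (vertical axis, %), 1 bar per library, 5 control libraries on the left and 5 Trpm7 cKO libraries on the right. Lyz2 takes between 46.7% and 63.5% in each of the 10 bars, and the shares of each gene overlap between genotypes.

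The Trpm7 cKO libraries differed among themselves in how much of the 10 genes they held. Replicate 4 had the highest normalized CPM for 6 genes, replicate 5 for 3 (Mrc1, Fcgr1 and Laptm5) and replicate 3 for Cd14. Replicate 2 was the lowest for 9 genes and replicate 1 for Fcgr1. Replicate 2 was not shallow, with 536848 counts in all, yet it had 859 summed CPM of the 10 genes against 1834 to 3239 in the other 4. The control libraries lay between 165 and 299.8 summed CPM.

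To measure whether the genes varied together within a genotype, the genotype mean of each gene's log2 CPM was subtracted and the deviations of 10 libraries were correlated for each of the 45 pairs. The levels themselves fall into 2 clusters by genotype and no correlation of them is given. All 45 correlations of deviations were above 0, with Pearson's r between 0.10 and 0.92 and a median of 0.64, and Spearman's rho between 0.08 and 0.93 with a median of 0.59. The median over all pairs of tested genes was -0.003. Each r pools both genotypes, and no r for the control libraries alone is given. Deviations in control libraries did not always share a sign. In control replicate 2, Fcer1g deviated by -0.87 but Cd14 and Tyrobp by 0.47 and 0.50. In Trpm7 cKO replicate 2 every gene was below its group mean, from -0.64 (Fcgr3) to -1.59 (Laptm5). By an exact permutation test within genotype (two-sided, 14400 permutations), 13 of the 45 pairs had an unadjusted p under 0.05 for r and 10 for rho, and 1 pair held after Benjamini-Hochberg adjustment over the 45 pairs. This was Adgre1 with Lyz2, at r = 0.92 (exact p = 0.00035, adjusted p = 0.0156) and rho = 0.93 (exact p = 0.00049, adjusted p = 0.0219). Without the 2 libraries farthest from the median of Adgre1, its r was 0.78.

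Laptm5 had the highest median r with the other 9 genes, 0.72, and Cd14 and Fcgr1 the lowest, 0.40. Fcgr1 varied most closely with Mrc1 (r = 0.85, adjusted p = 0.165 by the exact permutation test) and least with its fellow receptor gene Fcgr3 (r = 0.10). Cd14 varied most closely with Tyrobp (r = 0.82, adjusted p = 0.0867 by the exact permutation test). Much of this rested on 1 library. Without Trpm7 cKO replicate 2 the median r fell to 0.37, and when the 2 libraries farthest from the median of the first gene of each pair were left out, the median was 0.37 and 37 of the 45 pairs remained above 0.

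**Figure D4:**
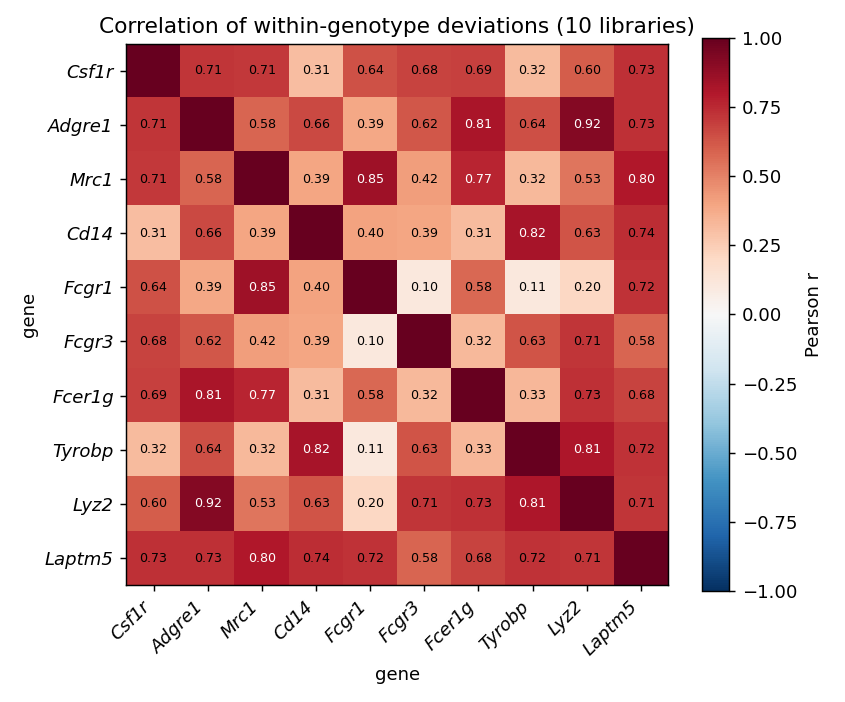
Pearson's r (colour and printed value) between the within-genotype deviations of log2 CPM of each pair of genes over 10 libraries, 5 per genotype. The values outside the diagonal lie between 0.10 (Fcgr1 with Fcgr3) and 0.92 (Adgre1 with Lyz2).

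Among the other tested genes, the 5 whose log2 CPM over the 10 libraries was most like the mean log2 CPM of the 9 tested genes were Mpeg1, Ctsb, Gpnmb, Pf4 and Lgmn, with Pearson's r between 0.991 and 0.998. This r includes the difference between the genotypes and is given as a description. On the deviations within genotype, r was between 0.908 and 0.979 for the same 5 genes. Mpeg1 encodes perforin-2, a pore-forming protein of macrophages, Ctsb and Lgmn encode the lysosomal proteases cathepsin B and legumain, and Pf4 encodes a chemokine. Mpeg1 had 9.04 to 22.0 normalized CPM in control and 71.8 to 383 in Trpm7 cKO libraries, and Ctsb 166.6 to 205 and 482 to 1639.

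On the GRCm38 build, Fcgr3 (chr1:171051174-171064935) and Fcer1g (chr1:171229572-171234365) are neighbours at a distance on the minus strand of chromosome 1. Mrc1 is at chr2:14229392-14332057, Fcgr1 at chr3:96282909-96293969, Laptm5 at chr4:130913125-130936141, Tyrobp at chr7:30413760-30417585, Lyz2 at chr10:117277331-117282321 and Adgre1 at chr17:57358691-57483527.

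RefSeq promoters (GRCm38.p6, the bases around the transcription start) could be matched for 6 of the 10, namely Fcgr1, Fcgr3, Fcer1g, Mrc1, Lyz2 and Laptm5. They were searched on both strands for GAGGAA, the core that the myeloid transcription factor PU.1 binds, and for TTGCNNAA, a C/EBP motif. GAGGAA was found in 4 of the 6 genes, against 31.2% of 27025 genes with a RefSeq promoter, and TTGCNNAA in 1 of the 6 (Fcgr3), against 12.2%. The 30 bases around the match nearest to the start are shown 5′ to 3′ on the strand of the gene for those 4 genes, because they are the members of the group that share this core. Capitals mark the match, read on this strand as TTCCTC.
Mrc1, chr2:14229367-14229396, plus strand: aaaagggacagcTTCCTCtgtcctcctttt
Laptm5, chr4:130913266-130913295, plus strand: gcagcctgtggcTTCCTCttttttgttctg
Fcgr1, chr3:96294007-96294036, minus strand: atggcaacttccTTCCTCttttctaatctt
Fcgr3, chr1:171059395-171059424, minus strand: agagagtccatttccTTCCTCtttttgtag
The match begins 35 bases before the start of Mrc1, 38 before that of Laptm5, 55 before that of Fcgr1 and 6 or 15 before that of Fcgr3, which has more than 1 listed start. These are RefSeq starts. By the gene positions given above, the windows of Laptm5 and Fcgr3 lie inside the genes. It is a match of letters, not a measured site. Spi1, which encodes PU.1 and is named here after its values were seen, had 3, 0, 2, 1 and 2 counts in control and 11, 4, 7, 11 and 7 counts in Trpm7 cKO libraries. It did not pass the filter on low counts.

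The pathways around the 10 genes were described by lists of partner genes, for which 8.49% of all tested genes rose and 3.53% fell as above. Of the 18 other Fc receptor and ITAM adaptor partners in the table, 4 were tested and all 4 rose (Fcgr2b, Fcgrt, Trem2 and Itgb2), with a median log2 fold change of 2.67. Of these 4, 3 were under the filter's minimum in every control library and so were tested through their level in Trpm7 cKO alone, as was 1 of the 4 signalling genes that follow. Fcgr2b, the inhibitory receptor for immunoglobulin G, rose by 2.74 on the log2 scale (standard error 0.33, adjusted p = 1.56e-06, edgeR), in the same direction as the activating receptor gene Fcgr3. Fcgrt, the receptor that recycles immunoglobulin G, rose by 1.89 (standard error 0.24, adjusted p = 2.40e-06) on the log2 scale. Trem2, a DAP12-coupled lipid receptor, had 1 to 5 counts in control and 9 to 46 counts in Trpm7 cKO libraries (adjusted p = 6.99e-07). Ms4a2, the beta chain of the immunoglobulin E receptor of mast cells, had no count in any library. Of the 18 genes that act downstream of Fc receptors and ITAMs, 4 were tested and all 4 rose. They were Blnk (log2 fold change 2.54, standard error 0.27), Ptprc, which encodes CD45 (2.84, standard error 0.38), the phosphatase gene Ptpn6 (4.03, standard error 0.43) and the kinase gene Lyn (1.91, standard error 0.34). Without Trpm7 cKO replicate 2, 9 of 9 tested genes rose in the first list and 7 of 7 in the second. Per 3000 sorted cells, 2 genes passed in each.

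Of 18 ligands, regulators and signalling partners of CSF1R, 13 were tested, 6 rose, none fell and 7 did not pass, with a median log2 fold change of 1.33. The ligand gene Csf1 had 261 to 322 counts in control and 62 to 433 in Trpm7 cKO libraries. Its log2 fold change was 0.96 (standard error 0.18, adjusted p = 0.000171, edgeR), under the fold threshold, and its normalized CPM overlapped between genotypes. The other ligand gene, Il34, named here after its values were seen, had 10 to 17 counts in control and 1 to 22 in Trpm7 cKO libraries and was not tested. Cebpb, a transcription factor gene of myeloid and other cells, rose by 2.31 on the log2 scale (standard error 0.25, adjusted p = 2.09e-06), whereas Runx1, at 0.14 (standard error 0.14, adjusted p = 0.412), did not pass. Maf, Irf8, Stat5a and Csf2rb were also among the genes that rose. Csf2rb, under the filter's minimum in every control library, was not tested when any 1 control library was left out or with at least 10 counts required in at least 5 libraries. The general signalling genes Grb2, Sos1 and Cbl had log2 fold changes of 0.04, -0.23 and -0.04. Per 3000 sorted cells, 2 of the 13 passed, Csf2rb among them.

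Of 18 genes around CD14 and the Toll-like receptors, 5 were tested, 1 of them through its level in Trpm7 cKO alone, and 3 rose. Lbp, which encodes the lipopolysaccharide-binding protein, rose by 3.37 (standard error 0.51, adjusted p = 5.86e-05, edgeR). Myd88 and Unc93b1, an adaptor and a chaperone of Toll-like receptors, had log2 fold changes of 1.55 and 1.51, at the threshold, and neither passed with limma-voom, in the test against 1.5, per 3000 sorted cells or when scaled on MuSC markers. Irak1 had a log2 fold change of 0.49 (adjusted p = 0.0237). Tlr4, the partner of CD14, had 2 to 13 counts in control and 1 to 12 in Trpm7 cKO libraries, so that the ranges of counts overlapped, and was not tested.

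Of 14 scavenger and phagocytic receptors in the table, 7 were tested and 4 rose (Msr1, Cd36, Cd68 and Lrp1), and without Trpm7 cKO replicate 2 the count was 7 of 9. Of the 7, 2 were under the filter's minimum in every control library. Cd36, a scavenger receptor for oxidized lipids, rose by 3.87 (standard error 0.49, adjusted p = 6.05e-05, edgeR) and Lrp1, a receptor for apolipoproteins and other ligands, by 2.37 (standard error 0.27, adjusted p = 1.35e-06). Axl, a receptor for apoptotic cells that was abundant in both genotypes (688 ± 107 and 523 ± 141 normalized CPM, SD, n = 5), had a log2 fold change of -0.38 (adjusted p = 0.0805). Of 10 lysosomal and sorting partners of LAPTM5 and lysozyme, 8 were tested and 1 rose, Ctss, which encodes cathepsin S (2.42, standard error 0.36, adjusted p = 0.000192). Ctss did not pass the test against a log2 fold change of 1.5, and per 3000 sorted cells none of the 8 rose and 2 fell. Without Trpm7 cKO replicate 2, Lyz1 was tested and rose as well. The ubiquitin ligase gene Nedd4 and the lysosomal membrane gene Cd63 had log2 fold changes of -0.94 and -0.55, under the fold threshold. The median log2 fold change in this list was 0.34.

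Markers of several cell types also rose in Trpm7 cKO. Of 15 macrophage markers, 12 were tested and all 12 rose, and their summed normalized CPM ranged from 469 to 763 over control libraries and from 1862 to 6484 over Trpm7 cKO libraries. Of the 12, 4 were tested through their level in Trpm7 cKO alone, being under the filter's minimum in every control library. Against a log2 fold change of 1.5 the count of macrophage markers was 10, and per 3000 sorted cells it was 11. Apoe rose by 2.70 (standard error 0.20, adjusted p = 1.19e-08, edgeR) and Lgmn by 3.22 (standard error 0.40, adjusted p = 5.08e-05) on the log2 scale. Of 10 monocyte markers, 6 were tested and 5 rose, among them Ccr2 (4.78, standard error 0.46) and Fn1 (2.42, standard error 0.44). Vcan had -0.80 and was not called. The normalized CPM of Fn1 overlapped between genotypes, at up to 35.13 in control and from 34.97 in Trpm7 cKO. Fn1 did not rise in the test against a log2 fold change of 1.5 or per 3000 sorted cells. Of the 6, 3, Ccr2 among them, were under the filter's minimum in every control library. The sum of the monocyte list ranged from 119.8 to 161.9 CPM over control libraries and from 199 to 658 CPM over Trpm7 cKO libraries. Macrophage markers were present in control libraries too. C1qb, a complement gene of macrophages named here after its values were seen, had 35 to 51 counts in each of them.

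Endothelial markers summed to 6.44 to 78.7 CPM in control libraries, against 134.3 to 756 CPM in Trpm7 cKO libraries. Of the 10 endothelial markers, 3 were tested and all 3 rose, namely Cdh5 (4.02, standard error 0.83), Pecam1 (3.46, standard error 0.73) and Flt1 (3.10, standard error 0.87). Of the 3, 1 was under the filter's minimum in every control library. The normalized CPM of Flt1 overlapped between genotypes, at up to 15.1 in control and from 11.1 in Trpm7 cKO, and Flt1 was not tested when any 1 control library was left out and not called without Trpm7 cKO replicate 4. The count was 5 without Trpm7 cKO replicate 1 or 5 and 6 without replicate 2, and none of the 3 passed the test against a log2 fold change of 1.5. Per 3000 sorted cells all 3 endothelial markers rose, and without a filter all 10 did. Of 10 fibro-adipogenic progenitor markers, 8 were tested and 5 rose (Dcn, Col1a1, Ly6a, Dpt and Cd34), 1 of the 8 having been under the filter's minimum in every control library. Against a log2 fold change of 1.5 the count was 3, and per 3000 sorted cells 1 rose (Dpt) and 1 fell. The more abundant Col1a2, Col3a1 and Gsn were not called, and the sum of the list overlapped between genotypes, at 2855 to 4734 and 3497 to 6336 CPM.

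Markers of other blood cells had few counts apart from Fscn1, and some of them were higher in Trpm7 cKO. No marker of neutrophils, T and NK cells, B cells or mast cells passed the filter. The 8 T and NK cell genes in the table had at most 3 counts each in any library, Camp of neutrophils and Ms4a2 of mast cells had none, and the neutrophil list summed to 5 to 12 counts in control and 6 to 26 in Trpm7 cKO libraries. The B cell list summed to 1.00 to 3.22 CPM in control and 16.6 to 33.1 CPM in Trpm7 cKO libraries, without overlap. In this list, Ighm had 1 count in each control library and 4 to 16 counts in Trpm7 cKO libraries. Ighm passed the filter when any 1 Trpm7 cKO library was left out or Trpm7 cKO replicates 4 and 5 were summed, and then rose. Of the dendritic cell list only Fscn1 was tested, which is not limited to these cells (log2 fold change -1.20, not called). Zbtb46 was tested and rose without any 1 of the control libraries or without Trpm7 cKO replicate 5.

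MuSC markers were present in every library and their sum overlapped between genotypes, at 2868 to 3305 CPM in control and 2447 to 3714 CPM in Trpm7 cKO. Of 10 MuSC markers, 9 were tested. Chodl rose (3.49, standard error 0.29), Myod1, a gene of activated MuSCs, fell (-2.01, standard error 0.16), and the abundant Des, Vcam1 and Sdc4 had log2 fold changes of 0.08, 0.21 and 0.46. Pax7 and Itga7, named here after their values were seen, had 1.19 and -0.59, under the fold threshold. Their normalized CPM did not overlap between genotypes, so the sum of the list hides opposite moves of single genes. Calcr was tested and rose without any 1 of the control libraries or without Trpm7 cKO replicate 4. Of 10 ubiquitous genes, Gapdh fell (-1.69, standard error 0.20), and the abundant Actb and Tpt1 had log2 fold changes of -0.11 and 0.70. The part that other cells in the sort had in the levels of the 10 genes was not tested.

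**Figure D5:**
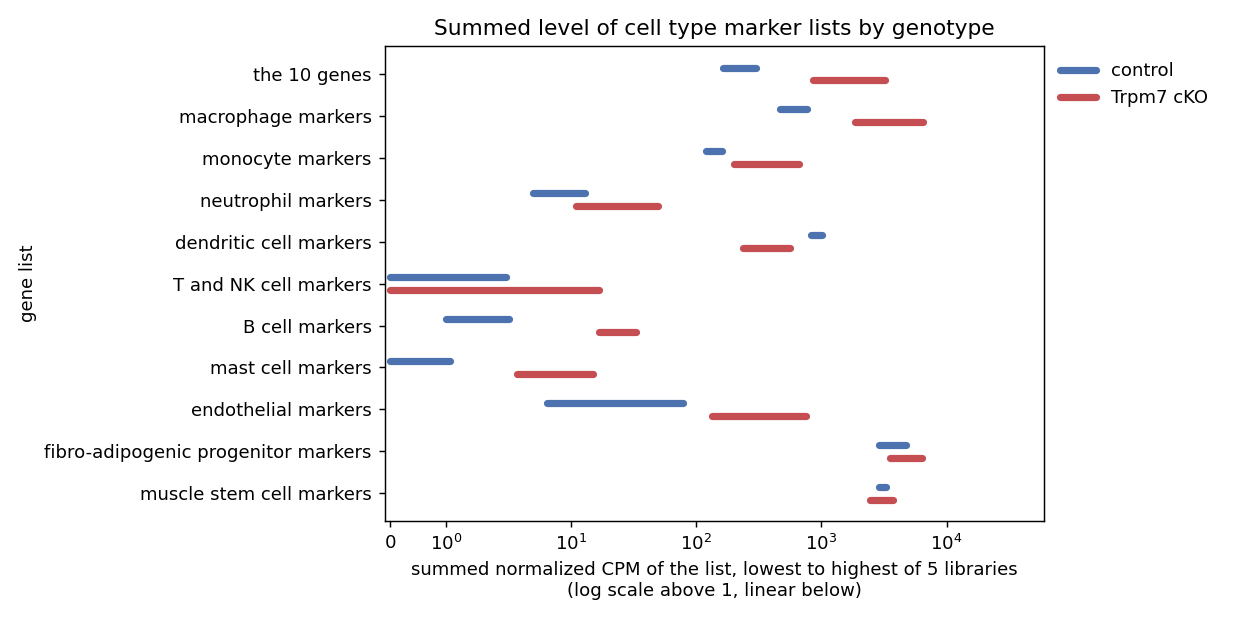
Summed normalized CPM (horizontal axis, log scale above 1 and linear below) of the 10 genes and of each cell type marker list, as a bar from the lowest to the highest of 5 libraries, blue for control and red for Trpm7 cKO. The red bars of the 10 genes and of the macrophage, monocyte and endothelial lists lie to the right of the blue bars without overlap, as do the B cell and mast cell bars, which end at 33.1 and 14.9 CPM, and those of the muscle stem cell list overlap. The dendritic cell bars separate the other way, at 818 to 1017 CPM in control and 237 to 565 CPM in Trpm7 cKO. Most of these sums is Fscn1 alone, at 813 to 1009 CPM in control and 221 to 524 CPM in Trpm7 cKO, a gene not limited to dendritic cells.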

How the data were processed

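RNA from 5 control and 5 Trpm7 cKO samples was read with CEL-Seq2. The authors extracted UMIs with UMI-tools 1.1.4, trimmed reads with Trim Galore 0.6.10, aligned them to GRCm38 with HISAT2 2.2.1, assigned them with featureCounts 2.0.6 and removed duplicates, and they deposited whole-number counts per gene, without normalization. The annotation and strand setting are not given in the sources used here. The table held 24620 entries under 24608 symbols. A symbol on more than 1 line (12 symbols, no member among them) was represented by the line with the larger total.

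The analysis used edgeR 4.0.16 under R 4.3.3. The function filterByExpr (minimum count 10, minimum total 15) left 7753 genes, and library sizes were then recomputed, so that CPM refers to counts on these genes after TMM scaling. A robust quasi-likelihood F test compared the genotypes, with genotype as the only term and Benjamini-Hochberg adjustment over all genes tested. A gene rose or fell at an adjusted p-value below 0.05 and beyond a log2 fold change of 1.5 in that direction, the thresholds of the study's methods. Log2 CPM used a prior count of 2. A group with at most 3 counts per library was treated as at the floor. Counting error alone sets this floor. Correlations used exact permutations within genotype. The scripts were tested on simulated counts. Alternatives were DESeq2 1.42.0, limma-voom (limma 3.58.1), other scalings, filters and thresholds, thinned counts, a replicate block and each library left out.

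The 10 genes, the partner and marker lists and the tests were chosen with earlier results of these data known. Beside the 10 genes, the text names the 3 tested genes with the highest mean CPM in each list, pathway genes called against the direction of the 10 genes (there were none), the 5 genes most like them, and a few genes marked as chosen after their values were seen or needed to name a count of 5 or fewer. Gene positions, overlaps and shared 31-base stretches came from the GENCODE annotation of GRCm38. A few genes that this rule names are not reported here. Other assays of the study were not analysed here.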

Additional observations from a re-analysis of the deposited data

Results flagged for a closer look

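Mrc1 in control replicate 3 stood apart from the other control libraries, at 8.58 normalized CPM against 3.98 to 5.16 in the other 4. The values rest on 8 counts against 4 to 5. It was the 1 such value among 22 groups of 5 libraries examined with Dixon's criterion (the 10 genes and their sum in each genotype), and chance alone marks about 1 group in 20.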

How the results depend on the processing

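All tested members rose in every alternative, with 1 exception, Cd14 per 3000 sorted cells. With counts thinned to the smallest library total, 5 were tested and 5 rose (Fcer1g, Laptm5, Tyrobp, Lyz2 and Cd14). Csf1r, Adgre1, Mrc1 and Fcgr3, which had passed the main filter through Trpm7 cKO alone, were not tested there. With at least 10 counts required in at least 5 libraries, 7 were tested and rose, Adgre1 and Fcgr3 being left out. Without a filter, 10 of 10 rose. Leaving out each library in turn gave 9 to 10. The number of all genes that rose, 658, was 1908 by adjusted p alone, 285 when tested against a log2 fold change of 1.5, 1813 without a filter, 303 after thinning and 203 per 3000 sorted cells, and 677 to 824 with each library left out. The log2 ratio of the summed CPM, 3.20, was 3.17 to 3.24 with total counts, RLE factors or MuSC markers, 2.04 per 3000 sorted cells and 2.99 to 3.40 without each library. The MuSC marker list includes genes called in opposite directions (Chodl and Myod1), so scaling on it is not an independent standard. The median within-genotype correlation, 0.64, was 0.58 to 0.65 with other settings, and 0.37 to 0.72 without each library, the lowest being without Trpm7 cKO replicate 2. With another scaling, the median over all tested genes became -0.11 on the log2 scale (MuSC markers) and -1.15 (per 3000 sorted cells), with 63.9% and 7.62% of calls upward against 70.6%. Of 391 list counts under alternatives, 66 moved by over 1.5 times.

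The genotypes share replicate numbers 1 to 5, but correlations of the deviations of same-numbered samples lay between -0.12 and 0.18 and 1 of 10 samples correlated best with its own number. No pairing by number was thus seen, but a weak one could go unseen in so few libraries. With the replicate number as a block, 9 members and 645 genes rose.

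Control counts as low as 0 to 6 for Fcgr1 and Fcgr3 limit how precisely their control levels are known, and hence their folds.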
